A study of Mus musculus with 7 samples.

Results

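Islands of the repressive histone mark H3K27me3 were examined at 3 clusters of conjugating-enzyme genes in mouse liver, the Ugt1a, Ugt2b and Gstm loci. The loci were taken as 3 windows of the mm9 genome: Ugt1a on chromosome 1 from 89900001 to 90150000 (250 kb), Ugt2b on chromosome 5 from 87250001 to 87950000 (700 kb), and Gstm on chromosome 3 from 107650001 to 107900000 (250 kb). All islands that overlapped a window were members. They numbered 11 of the 122262 islands in the 7 lists, and all 11 lay in the Gstm window. The named genes of the loci are Ugt1a1, Ugt2b1, Ugt2b5, Ugt2b34, Ugt2b35, Ugt2b36, Gstm1 and Gstm3.

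The livers came from CD-1 males aged 7 weeks with no genetic change on the labels, 1 animal per sample. In 4 mice TCPOBOP had been injected at 3 mg/kg, and 3 mice had received the vehicle, 1% DMSO in corn oil. All livers were collected after 27 h. CD-1 is an outbred stock, so the animals differed in genotype. TCPOBOP activates the constitutive androstane receptor (CAR), a nuclear receptor of hepatocytes that switches on genes of drug and bilirubin disposal. Whether the ligand altered the repressive mark was the question of the study.

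UDP-glucuronosyltransferases, encoded by the Ugt genes, join glucuronic acid to bilirubin, steroids, bile acids and drugs so that they can leave in bile or urine. Mu-class glutathione S-transferases, encoded by the Gstm genes, join glutathione to reactive electrophiles. The Ugt1a genes share their last exons and each has its own first exon and promoter, whereas the Ugt2b and Gstm clusters hold separate gene copies that lie side by side. H3K27me3 is written by Polycomb repressive complex 2, covers genes that are held silent, and in mammals gathers at silent promoters rich in CG dinucleotides.

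In the RefSeq gene table of the later build GRCm38, used here only for names and neighbours, the Ugt1a genes run from Ugt1a10 through Ugt1a9, Ugt1a8, Ugt1a7c, Ugt1a6b, Ugt1a6a, Ugt1a5 and Ugt1a2 to Ugt1a1, between Usp40 and Mroh2a. On chromosome 5 the order is Ugt2b34, Ugt2b1, Ugt2b35, Ugt2b36, Ugt2b5, Ugt2b37, Ugt2a3, Ugt2b38, Ugt2a1 and Ugt2a2, between Ythdc1 and Sult1b1. On chromosome 3 it is Gstm5, Gstm7, Gstm6, Gstm3, Gstm2, Gstm1 and Gstm4, between Eps8l3 and Ampd2. The islands have mm9 positions and no mm9 gene annotation was used, so single genes were not placed against islands, and liver identity was not checked against the loci of marker genes.

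The promoters of these genes are shown because the mark is known to favour CG-rich starts. Promoter sequence from RefSeq (GRCm38.p6) was found for 8 of 9 Ugt1a genes, 10 of 10 Ugt2a and Ugt2b genes and 7 of 7 Gstm genes, and the 250 bases before the start farthest upstream were read. The 5 printed are those of Ugt1a1, the bilirubin enzyme (chr1:88211709-88211958, plus strand), of Ugt2b34 (chr5:86906938-86907187, minus strand) and Ugt2b5 (chr5:87140341-87140590, minus strand), both of a family that handles steroids and drugs, and of the glutathione transferases Gstm3 (chr3:107969175-107969424, minus strand) and Gstm1 (chr3:108017974-108018223, minus strand). They run 5′ to 3′ along the gene, and capitals mark CG.
Ugt1a1: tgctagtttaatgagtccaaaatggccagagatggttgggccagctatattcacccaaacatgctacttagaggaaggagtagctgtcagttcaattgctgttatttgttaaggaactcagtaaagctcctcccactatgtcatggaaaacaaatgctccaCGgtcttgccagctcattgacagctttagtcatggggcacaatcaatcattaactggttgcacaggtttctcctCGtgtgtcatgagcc
Ugt2b34: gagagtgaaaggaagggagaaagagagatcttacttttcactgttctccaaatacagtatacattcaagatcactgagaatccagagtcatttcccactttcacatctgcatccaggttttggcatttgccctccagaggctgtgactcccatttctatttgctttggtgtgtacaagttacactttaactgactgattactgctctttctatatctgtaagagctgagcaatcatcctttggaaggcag
Ugt2b5: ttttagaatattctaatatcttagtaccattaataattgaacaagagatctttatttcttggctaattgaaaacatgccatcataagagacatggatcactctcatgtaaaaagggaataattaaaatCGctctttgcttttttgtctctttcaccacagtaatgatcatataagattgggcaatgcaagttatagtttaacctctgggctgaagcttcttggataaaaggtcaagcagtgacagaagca
Gstm3: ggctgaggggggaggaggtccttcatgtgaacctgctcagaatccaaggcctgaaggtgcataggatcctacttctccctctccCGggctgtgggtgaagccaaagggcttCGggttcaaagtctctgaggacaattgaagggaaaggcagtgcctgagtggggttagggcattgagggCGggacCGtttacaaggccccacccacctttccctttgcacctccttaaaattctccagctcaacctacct
Gstm1: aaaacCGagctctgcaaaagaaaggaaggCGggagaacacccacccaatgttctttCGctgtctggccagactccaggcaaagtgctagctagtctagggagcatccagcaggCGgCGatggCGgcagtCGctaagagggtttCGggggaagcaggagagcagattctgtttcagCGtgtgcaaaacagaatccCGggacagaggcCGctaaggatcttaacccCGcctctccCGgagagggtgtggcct

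The Ugt promoters held few CG dinucleotides. The 10 Ugt2a and Ugt2b promoters had between 0 and 2, with a median of 1, and the 8 Ugt1a promoters between 0 and 3, with a median of 2. The 7 Gstm promoters had between 3 and 14, with a median of 4. Over all 32851 promoters of the table the median was 6, and 37.8% had 3 or fewer. A gene with several starts counts more than once among these. Gstm1, Gstm4 and Gstm7 had 2 starts and Gstm6 had 3, of which only the farthest upstream was counted for the families. Ugt2b34 and Ugt2b36 had 0, Ugt2b1 and Ugt2b5 had 1, and Ugt2b35 and Ugt1a1 had 2. Gstm3 had 4 and Gstm1 had 13, a count that 70.6% of all promoters did not exceed. The plot of CG counts shows the split within the Gstm family, with Gstm1, Gstm4 and Gstm5 at 13 or 14 and the other 4 at 3 or 4.

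**Figure D1:**
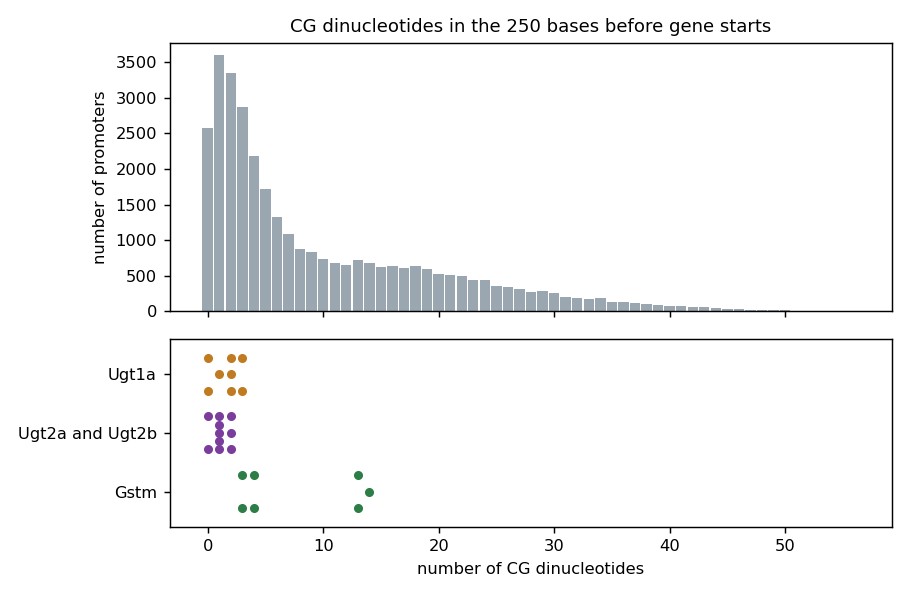
Number of CG dinucleotides in the 250 bases before the gene start (horizontal axis), for all 32851 RefSeq promoters (upper panel, number of promoters) and for single genes of the 3 families (lower panel, 1 point per gene). The Ugt genes sit at 0 to 3 and the Gstm genes at 3 to 14.

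The same 250 bases were searched on both strands for AGGTCA, a hexamer that nuclear receptors such as CAR are known to bind, for GTTAAT, a part of the site of the hepatocyte factor HNF1, and for TATAAA, the TATA box. AGGTCA and TATAAA can share a base where they adjoin, and GTTAAT can share its G with a CG. AGGTCA was found in 5 of 10 Ugt2a and Ugt2b promoters, in 2 of 8 Ugt1a promoters and in 0 of 7 Gstm promoters, against 14% of all promoters. GTTAAT was in 4 of 8 Ugt1a promoters, Ugt1a1 among them, in 1 of 10 Ugt2a and Ugt2b promoters and in 0 of 7 Gstm promoters, against 6.43% of all. TATAAA was in 0, 2 and 1 of these promoters of the Ugt1a, Ugt2 and Gstm families, against 12.4% of all. The motifs were chosen with the sequences in view, the genes of a family are copies of one another, and a match is a string of letters and not a bound site.

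The 5 AGGTCA matches of the Ugt2b genes are shown with the bases around them because 4 of them sit in a nearly identical run. They lie on chr5 of GRCm38.p6, at 87000633-87000662 on the plus strand for Ugt2b35, and on the minus strand at 87092563-87092592 for Ugt2b36, 87140345-87140374 for Ugt2b5, 87254810-87254839 for Ugt2b37 and 87424211-87424240 for Ugt2b38. Capitals mark AGGTCA.
Ugt2b36: ttcttagataaaAGGTCAagcagtgacaga
Ugt2b5: ttcttggataaaAGGTCAagcagtgacaga
Ugt2b37: ttcttggataaaAGGTCAagcagtgacaga
Ugt2b38: ttcttggataaaAGGTCAagcagtgacaaa
Ugt2b35: acaggtttacacAGGTCAcaactcctaact

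Over these 30 bases Ugt2b37 did not differ from Ugt2b5, and Ugt2b36 and Ugt2b38 each differed from it at 1 base. Ugt2b35 differed at 22 bases. The match began between 22 and 39 bases before the start in the 4 similar genes and 215 bases before it in Ugt2b35.

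The 7 lists held between 16481 and 20550 islands in TCPOBOP livers and between 14167 and 17852 in vehicle livers. Islands summed to 537 Mb in TCPOBOP replicate 2 and likewise in vehicle replicate 2, and to between 583 and 605 Mb in the other 5. The livers numbered 2, given different treatments, had the longest island-free stretches at Ugt2b and the most cover of the Gstm window. At Ugt1a they stood at opposite extremes, with island-free stretches of 684 kb in TCPOBOP replicate 2 and 496 kb in vehicle replicate 2. The lists carry no read numbers, so the depth behind each island is unknown here. An island is a run of 400 bp windows that the caller SICER found to hold more reads than a random background, with gaps of up to 2400 bp bridged. Its score sums the evidence over the windows, grows with width and depth, and is the authors' own value, used here only to rank an island within its list. In whole-liver chromatin a dense mark in a few cells and a thin mark in many cannot be told apart, and a place without an island may still carry some mark. How well reads can be placed among the similar gene copies of these clusters was not tested, so a cover of 0% says only that no island was called.

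At the Ugt1a locus no island was called in any liver. The 250 kb window was free in 4 of 4 TCPOBOP livers and in 3 of 3 vehicle livers, so its cover was 0% throughout and no test could be made. For scale, 20.7% of 47907 autosomal windows of that length, taken every 50 kb between the first and last island of a chromosome, had no island in any of the 7 lists. Between the first and the last island on chromosome 1, islands covered 19.4 to 22.8% in TCPOBOP livers and 19.3 to 22.6% in vehicle livers.

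The free stretch at Ugt1a reached well beyond the window. Around the centre of the window it measured 617, 684, 637 and 623 kb in TCPOBOP replicates 1 to 4, against 618, 496 and 684 kb in vehicle replicates 1 to 3. Vehicle replicate 2 had the short one, because it alone had islands that near on the left, the nearest from 89731201 to 89747600. The groups overlapped: the mean was 640.3 ± 30.5 kb with TCPOBOP (SD, n = 4) and 599 ± 95.6 kb with vehicle (SD, n = 3), a difference of 41.1 kb (95% interval -66.7 to 189 kb, two-sided exact permutation p = 0.486). Without vehicle replicate 2 the difference was -10.7 kb. With 35 splits of the 7 livers, the smallest p that this test can give is 0.0286.

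The neighbourhood of Ugt1a was uneven. In the 500 kb to the right of the window islands covered 61.2 ± 5.65% in TCPOBOP livers (SD, n = 4) and 57.8 ± 8.92% in vehicle livers (SD, n = 3; exact permutation p = 0.571), and in the 500 kb to the left they covered 23.2 ± 6.24% in TCPOBOP livers and 23.2 ± 7.28% in vehicle livers (exact permutation p = 1). The first island on the right began between 90239201 and 90322401. In 5 livers it belonged to a merged region from 90239201 to 90301200, which was 70.3, 0, 41.3 and 52.3% covered in TCPOBOP replicates 1 to 4 and 23.2, 83.2 and 0% covered in vehicle replicates 1 to 3. That region thus lacked an island in 1 liver of each group, TCPOBOP replicate 2 and vehicle replicate 3. Its cover differed by 5.48 percentage points (SE 30.8, limma adjusted p = 1).

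At the Ugt2b locus no island was called in any liver either, over the 700 kb taken as the locus of Ugt2b1, Ugt2b5, Ugt2b34, Ugt2b35 and Ugt2b36. Cover was 0% in 4 of 4 TCPOBOP livers and in 3 of 3 vehicle livers. Of 47736 autosomal windows of 700 kb, 9.35% had no island in any list. Between the first and the last island on chromosome 5, islands covered 24.8 to 26.3% in TCPOBOP livers and 25.1 to 25.8% in vehicle livers.

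Around Ugt2b the free stretch measured 1415, 2372, 1369.6 and 1459 kb in TCPOBOP replicates 1 to 4, against 1398, 2207 and 1178 kb in vehicle replicates 1 to 3. TCPOBOP replicate 2 and vehicle replicate 2 had the long ones, and the 5 others lay between 1178 and 1459 kb, so the groups overlapped. The mean was 1654 ± 479.9 kb with TCPOBOP (SD, n = 4) and 1594 ± 542 kb with vehicle (SD, n = 3). The difference was 59.8 kb (95% interval -837 to 1734 kb, exact permutation p = 0.829), and without TCPOBOP replicate 2 it was -179 kb. Without vehicle replicate 1, 2 or 3 it was -38.3, 366 or -149 kb.

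The stretch at Ugt2b was bounded by islands of low or middling score. The 7 islands on its left edge had scores between the percentiles 2.89 and 43.8 of their lists, and the 7 on its right edge between the percentiles 2.26 and 55.5. Per window of 400 bp, the scores on the left edge lay between the percentiles 3.00 and 75.9, and those on the right edge between 1.62 and 12.6. The edges were spread over 473 kb on the left and 823 kb on the right. The flanks were thinly covered, with 0 to 9.68% of the 500 kb on the left in TCPOBOP livers and 0 to 11.9% in vehicle livers, and with 0 to 12% of the 500 kb on the right in TCPOBOP livers and 0 to 19.6% in vehicle livers. Cover of both flanks was 0% in TCPOBOP replicate 2 and in vehicle replicate 2.

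**Figure D2:**
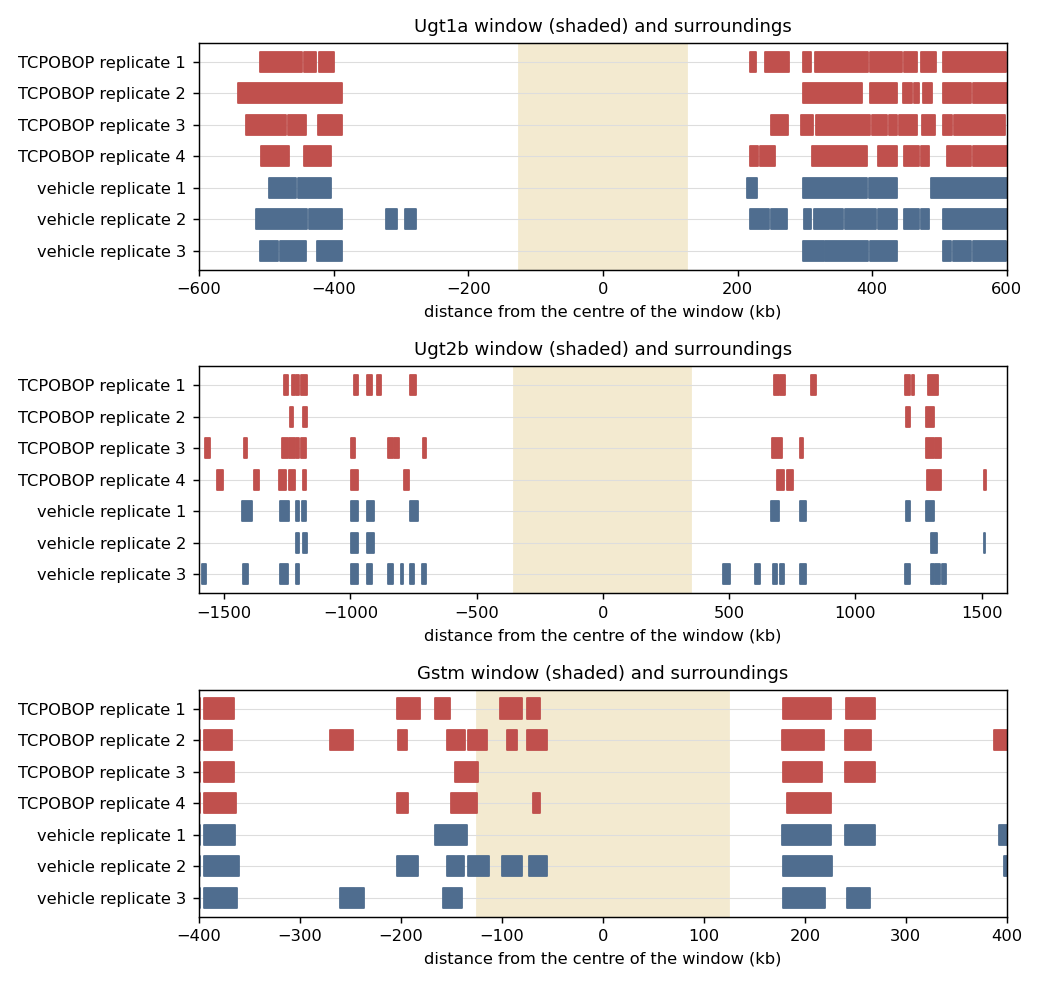
Islands (bars) in each liver, with TCPOBOP livers in red above vehicle livers in blue, by distance in kb from the centre of the Ugt1a, Ugt2b and Gstm windows, which are shaded. The Ugt1a and Ugt2b windows hold no island in any liver, and the Gstm window holds islands in its left part only.

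The Gstm locus was the exception, with 11 islands in 5 of 7 livers, all in the low-coordinate part of the window. There were 2, 3, 1 and 2 islands in TCPOBOP replicates 1 to 4, against 0, 3 and 0 in vehicle replicates 1 to 3. All 4 TCPOBOP livers and 1 of 3 vehicle livers thus had at least 1, and the groups overlapped because vehicle replicate 2 had as many as any. The mean was 2 ± 0.816 with TCPOBOP (SD, n = 4) and 1 ± 1.73 with vehicle (SD, n = 3), a difference of 1 island (95% interval -2 to 3.33, exact permutation p = 0.4). Without vehicle replicate 2 it was 2 islands, without vehicle replicate 1 or 3 it was 0.5, without TCPOBOP replicate 2 it was 0.667, and with both livers numbered 2 left out it was 1.67.

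By length, islands took 33.6, 40.0, 1.2 and 7.6 kb of the Gstm window in TCPOBOP replicates 1 to 4, against 0, 50.4 and 0 kb in vehicle replicates 1 to 3. The highest value belonged to a vehicle liver and the lowest values to the other 2 vehicle livers, so the TCPOBOP livers lay between them. In TCPOBOP replicate 3 the island reached only 1.2 kb into the window. Cover was 8.24 ± 7.63% with TCPOBOP (SD, n = 4) and 6.72 ± 11.6% with vehicle (SD, n = 3). The difference, 1.52 percentage points, did not exceed the SD of either group (95% interval -19.7 to 19.6, exact permutation p = 0.857). It was 8.24 without vehicle replicate 2, -1.84 without vehicle replicate 1 or 3, -0.213 without TCPOBOP replicate 1 and -1.07 without TCPOBOP replicate 2. Mean cover over the 7 livers was 7.59%, and 39.4% of autosomal windows of 250 kb had that much or less, with a median of 14.5%.

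The 11 Gstm islands ranked low or in the middle of their lists by score. They were 6.8 to 26.0 kb wide, with a median of 20 kb, and their scores were 1.09 to 2.27 times the lowest score kept in the same list. By score they stood between the percentiles 7.74 and 52.5 of their lists, with a median of 37.0. The narrowest, 6.8 kb in TCPOBOP replicate 4 from 107706001 to 107712800, had 5.17 per window, the percentile 91.1 of its list. Ranked per window, the 11 ran from the percentile 8.66 to 91.1, with a median of 35.2, and 5 of the 11 lay above the median of their list.

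Merging the islands of all livers gave 3 regions at the Gstm window. The first, from 107609201 to 107662000, straddled its left border and had an island in 7 of 7 livers. It was 28, 68.9, 42.4 and 49.2% covered in TCPOBOP replicates 1 to 4 and 58.3, 72.0 and 35.6% covered in vehicle replicates 1 to 3. In vehicle replicates 1 and 3 its islands ended at 107640000 and 107636000, to the left of the border. These livers also had no island in the other regions, so they counted none. The second region, from 107673601 to 107694800, was 100% covered in TCPOBOP replicate 1, 47.2% in TCPOBOP replicate 2 and 94.3% in vehicle replicate 2, and had no island in the other 4 livers. The third, from 107700001 to 107720000, was 62.0, 100, 0 and 34.0% covered in TCPOBOP replicates 1 to 4, against 0, 92.0 and 0% in vehicle replicates 1 to 3. Both inner regions were covered in TCPOBOP replicates 1 and 2 and in vehicle replicate 2, and neither in TCPOBOP replicate 3 or in vehicle replicates 1 and 3.

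**Figure D3:**
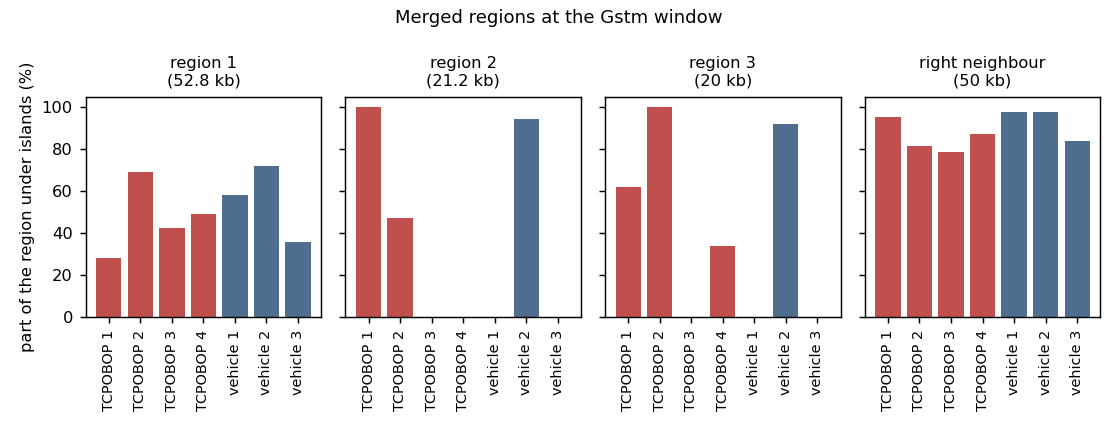
Part of each merged region under islands, in percent, in the 4 TCPOBOP livers (red) and the 3 vehicle livers (blue), for the 3 regions that overlap the Gstm window, in the order of their positions, and for the next region to the right. Regions 2 and 3 are both covered in TCPOBOP 1 and 2 and in vehicle 2, and region 3 is also 34.0% covered in TCPOBOP 4. The right neighbour is at least 78.4% covered in every liver.

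None of the 3 regions passed the test of treatment. Cover differed by -8.14 percentage points in the first (SE 25.5), by 5.35 in the second (SE 32.7) and by 18.3 in the third (SE 30.7), each with a limma adjusted p of 1. The median of the 3 was 5.35, beside 0.592 over all 13988 regions tested. Over the genome 0% of the 13988 regions had an adjusted p under 0.05. At an unadjusted p under 0.05 there were 0 of the 3, beside 3.87% of all regions, and without trend and robust variance limma also called 0 of the 3. The median standard error over the genome was 24.0 percentage points.

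Fixed bins of 50 kb have borders that do not depend on where islands lie, but their cover comes from the same lists. The empty bins therefore restate the free stretches. Of the 24 bins in the 3 windows 22 had no island in any liver, and the other 2 were the first 2 of the Gstm window. Only those 2 could be tested (an island in at least 2 livers and unequal values). Over the genome 23829 of 52613 bins could be. The bin from 107650001 to 107700000 was 42.4, 40.0, 2.4 and 1.6% covered in TCPOBOP replicates 1 to 4 and 0, 64.0 and 0% covered in vehicle replicates 1 to 3. The bin from 107700001 to 107750000 was 24.8, 40.0, 0 and 13.6% covered with TCPOBOP and 0, 36.8 and 0% covered with vehicle. Vehicle replicate 2 was highest in the bin from 107650001, TCPOBOP replicate 2 was highest in the bin from 107700001, and vehicle replicates 1 and 3 were at 0 in both. The differences were 0.267 percentage points (SE 19.5) and 7.33 percentage points (SE 13.4), each with a limma adjusted p of 1. With single livers left out, the difference in the bin from 107700001 lay between 0.533 and 19.6 points. Of 23829 bins tested 0% passed, and at an unadjusted p under 0.05 there were 0 of the 2 bins beside 3.95% of all. Without trend and robust variance 0 of the 2 were called.

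The rest of the Gstm window was free of islands in every liver. From 107720001 to 107952000, a stretch of 232 kb, no list had an island, and it holds 180 kb (72.0%) of the window at the high-coordinate end. In the GRCm38 order, Eps8l3 and Gstm5 stand at the low-coordinate end of the cluster and Gstm1 and Gstm4 at the other. Around the window's centre the free stretch was 241, 233, 302 and 245 kb in TCPOBOP replicates 1 to 4, against 312, 233 and 317 kb in vehicle replicates 1 to 3. It was long in the 3 livers without an island in the inner regions and short in the other 4. The mean was 255 ± 31.7 kb with TCPOBOP (SD, n = 4) and 287 ± 47.1 kb with vehicle (SD, n = 3), a difference of -32.4 kb (95% interval -84.4 to 77.0 kb, exact permutation p = 0.257), which was -17.5 to -59.5 kb when single livers were left out. Inside the window the longest free run was 201 ± 32.1 kb with TCPOBOP and 227 ± 40.4 kb with vehicle (exact permutation p = 0.371).

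**Figure D4:**
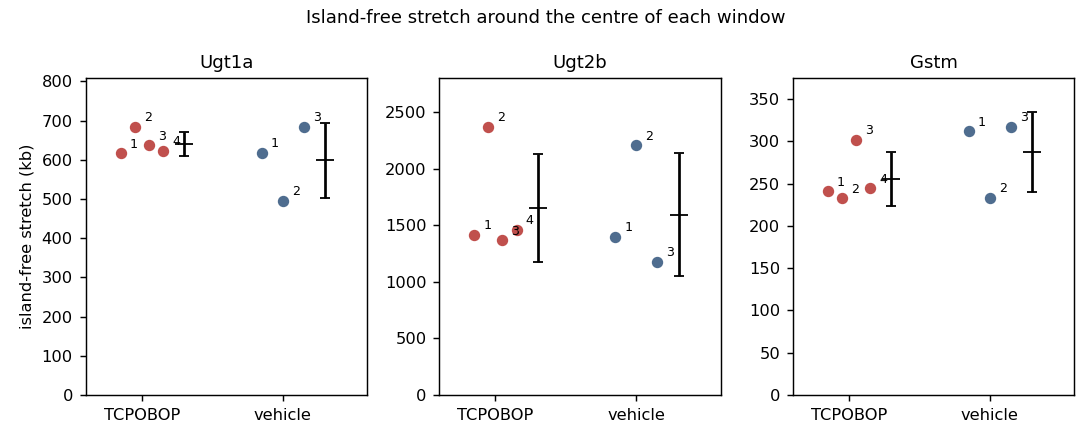
Length in kb of the island-free stretch around the centre of each window, with TCPOBOP livers (red) left of vehicle livers (blue), the replicate number beside each point, and bars for mean ± SD. The groups overlap at all 3 loci, and at Ugt2b the livers numbered 2 stand highest in both groups.

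On its right the Gstm stretch ended at a sharp border. The next island began between 107952001 and 107957601, a spread of 5.6 kb over 7 livers, against 84.0 kb on the left. That island belonged to a merged region from 107952001 to 108002000, which was 95.2, 81.6, 78.4 and 87.2% covered in TCPOBOP replicates 1 to 4 and 97.6, 97.6 and 84.0% covered in vehicle replicates 1 to 3. The livers of both groups were well covered there and overlapped. Its islands stood between the percentiles 83.7 and 92.6 of their lists by score, above every one of the 11 islands inside the window. They were also wider, at 39.2 to 48.8 kb, and the score grows with width. Ranked per window the separation did not hold. The 6.8 kb island of TCPOBOP replicate 4 inside the window stood at the percentile 91.1, and the islands of the right-hand region between 82.6 and 91.5. Cover was 85.6 ± 7.36% with TCPOBOP (SD, n = 4) and 93.1 ± 7.85% with vehicle (SD, n = 3), a difference of -7.47 percentage points (SE 5.62, limma adjusted p = 1).

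The 3 loci differed in how far the free stretch ran. The part without an island in any of the 7 lists was 1176.8 kb at Ugt2b, from 86900001 to 88076800, 491.6 kb at Ugt1a, from 89747601 to 90239200, and 232 kb at Gstm. Among 17322 such stretches between neighbouring autosomal regions, with a median of 20.8 kb, the ranks by length were 126, 490 and 1495. Stretches at least as long made up 0.727% of the total for Ugt2b, 2.83% for Ugt1a and 8.66% for Gstm. These counts include any assembly gaps that lie between islands. On its own chromosome the Ugt2b stretch ranked 7, the Ugt1a stretch 40 and the Gstm stretch 100.

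**Figure D5:**
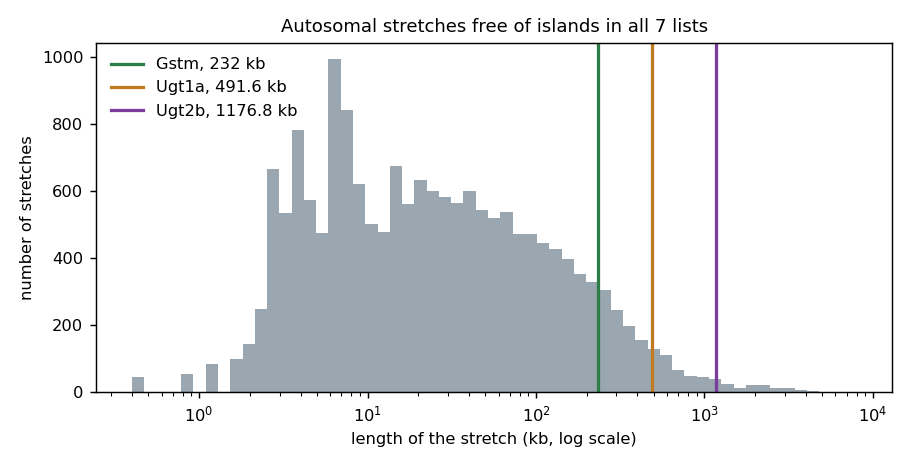
Lengths of the 17322 autosomal stretches that hold no island in any of the 7 lists (horizontal axis in kb, log scale; vertical axis, number of stretches). Lines mark the stretches at Gstm, Ugt1a and Ugt2b, of 232, 491.6 and 1176.8 kb.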

How the data were processed

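Reads were handled with Bowtie2 2.3.2 and SICER 1.1 on mm9, per the submitters' processing notes. The deposited files are 1 list of islands per liver with a score for each island, and the list names give the authors' SICER settings (400 bp windows, gaps of 2400 bp, E-value 100). Input controls, filters and duplicate handling are not given in the sources used here.

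The windows, genes, motifs and tests were chosen with earlier results of these data known. All islands that overlap a window, and every merged region and 50 kb bin there, were accounted for. Per-liver values were compared with two-sided exact permutation tests, whose 95% intervals come from inverting the test. Stretches around the window centre were added after the data were examined. Islands of all livers were merged where they overlapped or touched, giving 17394 regions. The covered fraction of 13988 regions, and of 23829 bins, with an island in at least 2 livers and unequal values was tested in R 4.3.3 with limma 3.58.1, using a variance trend and robust variance, with Benjamini-Hochberg adjustment over all of them and a threshold of 0.05. Python 3.11.15, NumPy 2.4.6, SciPy 1.17.1 and pandas 2.3.3 were used. Same replicate numbers in both groups were not taken as pairs, since the labels name no shared litter or day.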

Additional observations from a re-analysis of the deposited data

Results flagged for a closer look

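Among 12 measures that varied over TCPOBOP replicates 1 to 4, 2 held 1 value standing well apart. Chance alone gives that in about 1 of 20 such groups if values are independent and normally spread. The measures share islands, and the longest free run cannot exceed its window, so that rate is only a rough guide here. The free stretch around Ugt2b was 2371.6 kb in TCPOBOP replicate 2, against 1369.6 to 1459 kb in TCPOBOP replicates 1, 3 and 4, while vehicle replicate 2 had 2207 kb. The longest free run inside the Gstm window was 248.8 kb in TCPOBOP replicate 3, against 180 to 188 kb in the other TCPOBOP livers, and vehicle replicates 1 and 3 had 250 kb.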

How the results depend on the processing

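The Ugt1a and Ugt2b windows had no island under any alternative run. None could have added one, because all reused or thinned the same island lists. No difference at the 3 windows passed a test under any alternative. Most of the permutation alternatives could not pass: the smallest p was 0.0667 without 1 vehicle liver, 0.1 without 1 TCPOBOP liver or without both livers numbered 2, and 0.25 with 3 blocked pairs. Without vehicle replicate 2 the Gstm island number and free stretch were at that smallest value (exact permutation p = 0.0667). The direction changed in 26 of 296 alternatives. The 296 include the Ugt1a and Ugt2b window differences, always 0, and the numbers of regions and bins called. Those had no direction, so the share is higher among the rest. The Gstm island number, free stretch and longest free run kept their sign in those run. So did the third Gstm region, the bin from 107700001, and the regions right of Gstm and left of Ugt2b. The last (86885601 to 86900000, -13.4 points, SE 32.2) had islands only in the livers numbered 3. It was not tested without either, with the 25th percentile cut or with lists of equal length. With only islands from the 25th score percentile up, the Gstm cover differed by -0.16 percentage points, the bin from 107650001 by -4.73 and the free stretch at Ugt1a by -23.2 kb. With lists of equal total length the free stretch at Ugt2b differed by -51.4 kb and the first Gstm region by 3.72 points. With bins of 25 kb the first part of the bin from 107650001 differed by -2.87 points, and the rest the other way. Without both livers numbered 2 (added after the data were seen) the free stretch at Ugt1a differed by -25.4 kb. The causes were not tested.

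With single livers left out, the differences ran from -1.84 to 8.24 points for Gstm cover, from -10.7 to 83.5 kb and from -179 to 366 kb for the free stretches at Ugt1a and Ugt2b, from -18.0 to 0.197, from -16.7 to 36.8 and from 1.33 to 49.0 points for the 3 Gstm regions in order, from -12.3 to 48.3 points for the region right of Ugt1a, and from -10.4 to 21.6 points for the bin from 107650001. Over the genome limma called 13 regions and 1 bin without trend and robust variance, 1 region when an island in 1 liver sufficed, and 0 to 6 regions with single livers left out; 0 of these lay in the windows.

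With the replicate number as a block (replicate block, 3 pairs), Gstm cover differed by 3.25 points (exact sign-flip permutation p = 0.75) and the free stretches by 46.9, 125 and -28.9 kb at Ugt1a, Ugt2b and Gstm (exact sign-flip permutation p = 1, 0.25 and 0.25, 0.25 being the smallest possible). All 3 same-number differences were positive at Ugt2b (17.2, 165 and 192 kb) and negative at Gstm (-71.2, -0.4 and -15.2 kb). At Ugt1a they were mixed (-0.8, 189 and -47.2 kb). The -0.4 kb at Gstm spans 1 window of the caller. Limma with the block called 0 regions and 0 bins. Deviations of same-numbered livers correlated at 0.027, 0.278 and 0.069 (numbers 1 to 3), against -0.174 to 0.106 for unlike numbers. Read depth and how uniquely reads map in these clusters, neither given in the lists, limit what the absence of an island can show.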
